A study of Lytechinus variegatus with 23 samples.

Results

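The genes described here are the cell cycle and DNA replication genes of the sea urchin Lytechinus variegatus, measured by RNA sequencing of whole embryos. Members were the gene IDs whose deposited name begins like that of a known cell cycle or replication gene: Mcm, Cdc, Ccn, Cyclin, Cdk, Orc, Pcna, Plk, Aur, Bub, Mad2, Rfc, Pola, Pold or Pole with a number, Gins, Cdt1, E2f, Wee1 and Anapc. This gave 91 of 27231 IDs, with 70 different names. The names are those of matched genes of another urchin, Strongylocentrotus purpuratus. For 17 names more than 1 ID was found, covering 38 of the IDs, so reads of near-identical copies may be split between IDs and the level of each such ID is uncertain. The name rule also took 27 IDs whose products work mainly elsewhere, such as Cdc42, Cdc37 and the transcriptional kinase Cdk9, and these are kept apart as other names. Of the 64 remaining IDs, 17 belong to origin licensing, 18 to the replication fork, 8 to control of the G1/S transition, 8 to mitotic entry and 13 to the spindle checkpoint and the anaphase-promoting complex. Mitotic cyclins are named CycA and Cycb_1 in the deposited table, which the rule does not take, and they are described with the further cell cycle genes.

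The 8 groups were whole embryos, labelled as control or as exposed to alizarin, an anthraquinone dye, and collected at 12, 18, 24 or 30 hours post fertilisation (hpf). Each group had 3 libraries, lettered A, B and C, except alizarin at 18 hpf, which had 2 (B and C). The dose, the time of exposure and the cross behind each embryo pool are not given in the sources used here, and nothing says that replicates came from separate cultures, so p-values measure only the spread between these libraries. In whole-embryo RNA, fewer cells of a type and less RNA per cell cannot be told apart.

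In dividing animal cells, the origin recognition complex (Orc) with Cdc6 and Cdt1 loads the Mcm helicase on DNA before S phase, and the Cdc7 kinase, Cdc45, the DNA polymerases, the clamp loader Rfc and the sliding clamp Pcna then build and run the fork. The kinase Cdk1 drives entry into mitosis, held back by Wee1 and released by Cdc25, and Plk1 and Aurora kinases organise the spindle. Bub and Mad2 proteins keep the anaphase-promoting complex (APC/C) from its activator Cdc20 until chromosomes are attached. Early sea urchin embryos cleave rapidly on maternal stores of these mRNAs, and divisions slow as blastulae hatch and gastrulate.

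Library totals ran from 8194215 to 11730004 reads assigned to genes, and the members took between 0.452% and 0.916% of them. The lowest share was in alizarin 30 hpf replicate A, which also had the highest share of reads in ribosomal protein genes, 26.0%, against 20.7% and 20.2% in replicates B and C. At 12 hpf control replicate A had 2.54% of reads in ribosomal protein genes and replicates B and C had 8.56% and 8.65%, while the alizarin libraries had 2.14% to 4.12%. An age estimated for each library from 4411 other genes that changed steadily in controls was 28.45 to 30.15 h in the 30 hpf controls and 27.0, 23 and 23.4 h in replicates A, B and C of alizarin at that time. At 24 hpf it was 22.55 to 26.1 h in controls and 20.8 to 20.95 h with alizarin. The ages overlapped at 12 hpf (11.85 to 13.25 h in controls, 11.8 to 12.45 h with alizarin) and at 18 hpf (16.75 to 20.1 h in controls, 15.55 and 18.4 h with alizarin). The part of these differences in the results below was not tested.

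Between 12 and 30 hpf in controls, 10 of 18 replication fork genes rose and 7 of 8 mitotic entry genes fell. Expression is given in CPM, read counts scaled to library size, and was compared with edgeR's quasi-likelihood test, and a gene was called at an adjusted p under 0.05 over all 18419 genes tested, among which were 89 of the 91 members. The other 2 members, both named Ccnb1ip1, had too few reads to be tested. Between 12 and 30 hpf in controls 15 members rose and 30 fell, in a background where 21.0% of all genes tested rose and 19.2% fell. The median log2 fold change was -0.45 for the members and -0.09 for all genes. By role, the fork genes had a median of 0.85, with 1 of them falling, and the mitotic entry genes a median of -1.44, with none rising. Of 13 checkpoint and APC/C genes 6 fell and none rose, of 8 G1/S genes 3 fell and none rose, and of 17 licensing genes 3 rose and 5 fell.

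**Figure D1:**
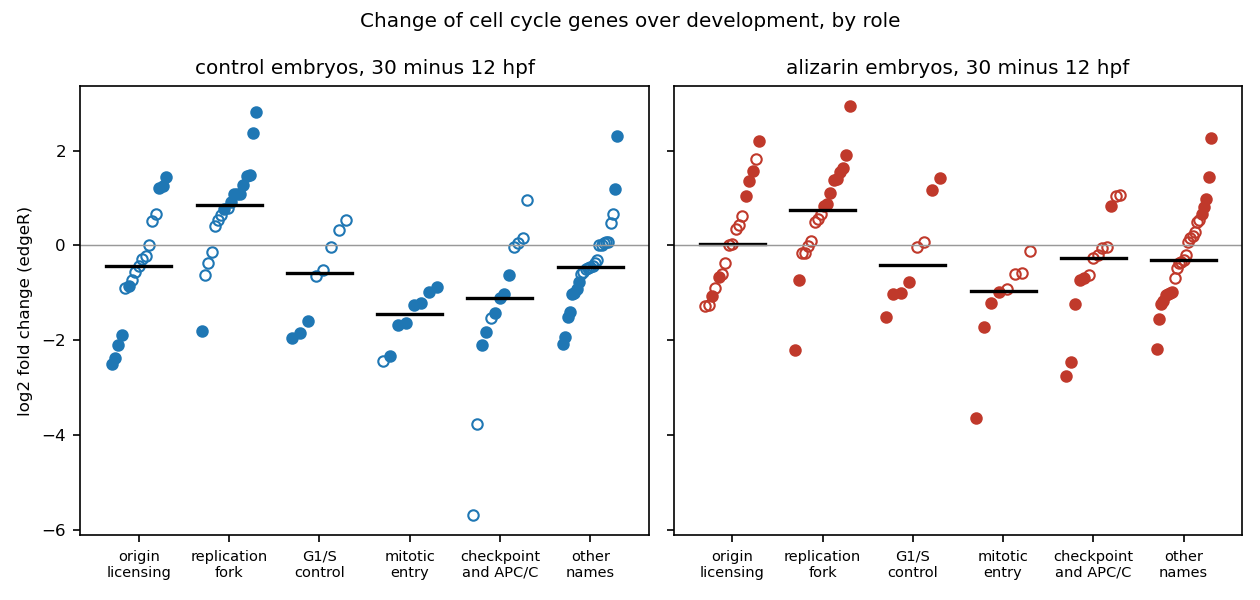
Log2 fold change from 12 to 30 hpf (vertical axis, edgeR) of each tested member, grouped by role, in control embryos (left) and alizarin embryos (right). Each point is a gene ID, filled where its adjusted p was under 0.05, and black bars are medians, which for control fork genes lie at 0.85 and for control mitotic entry genes at -1.44.

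Pcna (L_var_25876), the sliding clamp that holds polymerases on DNA, changed most among fork genes. Its levels in control replicates A, B and C were 94.0, 238 and 192 CPM at 12 hpf. They were 384, 449 and 629 CPM at 18 hpf, 741, 539 and 756 CPM at 24 hpf and 1276, 1170 and 1246 CPM at 30 hpf. The 30 hpf libraries lay far above all 12 hpf libraries, a 7.06-fold rise (log2 fold change 2.82, SE 0.33, adjusted p = 1.6e-06 by edgeR). Rfc4 (L_var_24312), a clamp loader subunit, rose from 7.67, 6.62 and 6.73 CPM to 41.8, 30.9 and 36.1 CPM (5.16-fold, edgeR adjusted p = 4.3e-05). Smaller rises were called for Rfc1, Rfc3, both IDs of Pola2, Pola1, Pold3, Pole2 and Cdc45, with log2 fold changes between 0.77 and 1.49. Pola1 is the catalytic subunit of the polymerase that starts DNA strands, and Cdc45 is part of the active helicase. Rfc5, with 43.6, 67.0 and 58.9 CPM at 12 hpf and 97.8, 79.8 and 88.5 CPM at 30 hpf, did not pass (log2 fold change 0.65, edgeR adjusted p = 0.051). The fork gene that fell was Mcm9, which works in DNA repair (log2 fold change -1.80, edgeR adjusted p = 0.013). Leaving out 1 library ended the call of Mcm9 (adjusted p of up to 0.0689) and those of both Pola2 IDs, Pole2 and Cdc45 (up to 0.119).

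Among 17 licensing IDs 3 helicase subunits rose and 5 IDs of loading factors fell, where 21.0% and 19.2% of all genes rose and fell. Among helicase subunits, Mcm2_1 (L_var_06282) had 158, 237 and 193 CPM in the control libraries at 12 hpf and 572, 429 and 599 CPM at 30 hpf, with no overlap. Its 2.72-fold rise passed the test (edgeR adjusted p = 0.0003), as did those of Mcm5 (2.31-fold, adjusted p = 0.02) and Mcm3_1 (2.38-fold, adjusted p = 0.0041). Mcm6, with 563 to 880 CPM at 12 hpf and 538 to 653 CPM at 30 hpf, and both IDs of Mcm7 did not pass. The Mcm5 call was lost without control 12 hpf replicate A or B or control 30 hpf replicate C (adjusted p of up to 0.0853) and in a fit of only these 2 groups (0.0671). Cdt1 (L_var_04452) went from 91.3, 99.4 and 42.9 CPM to 16.8, 21.8 and 16.2 CPM (log2 fold change -2.09, SE 0.31, edgeR adjusted p = 2.1e-05), and Cdc6 from 201, 213 and 188 CPM to 122, 103 and 110 CPM (log2 fold change -0.85, adjusted p = 0.025). All 3 IDs of Orc2, an origin recognition subunit, also fell, with log2 fold changes of -1.88 to -2.50. Their levels were low, 2.465 to 7.915 CPM in controls at 12 hpf and 0.357 to 2.07 CPM at 30 hpf. The IDs of Orc1, Orc3, Orc4 and Orc5 did not pass the test. The Cdc6 call was lost without control 12 hpf replicate B or control 30 hpf replicate B or C (adjusted p of up to 0.0783), and that of the Orc2 ID L_var_00615 without control 30 hpf replicate A (0.0611).

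Of the 8 mitotic entry genes, 7 fell between 12 and 30 hpf. Cdk1 (L_var_25996), the mitotic kinase, had 921, 1459 and 1383 CPM in the control libraries at 12 hpf and 470, 597 and 551 CPM at 30 hpf (0.43-fold, edgeR adjusted p = 0.0052). Wee1 (L_var_26501), the kinase that inhibits Cdk1, had 230, 139 and 148 CPM at 12 hpf and 37.5, 33.9 and 31.0 CPM at 30 hpf (0.198-fold, adjusted p = 1.8e-06). Its level at 18 hpf, 42.8, 69.1 and 38.0 CPM, was already below every 12 hpf library. Plk1, the polo-like kinase, fell at both its IDs. The more abundant, L_var_12314, had 535, 603 and 629 CPM at 12 hpf and 183, 183 and 204 CPM at 30 hpf. Aur (Aurora kinase), Plk2 and the Cdc25 ID L_var_19719 fell by 0.98, 1.25 and 0.87 on the log2 scale, and the Plk2 call was lost without control 12 hpf replicate A or control 30 hpf replicate A or C (adjusted p of up to 0.0839).

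Checkpoint and G1/S genes called between 12 and 30 hpf in controls all fell. Cdc20, the APC/C activator, fell at its abundant IDs L_var_18422 (151 CPM on average at 12 hpf and 42.7 CPM at 30 hpf, log2 fold change -1.82) and L_var_18545 (log2 fold change -2.10). Bub1 (L_var_13863), a spindle checkpoint kinase, had 257, 267 and 231 CPM at 12 hpf and 116, 125 and 129 CPM at 30 hpf (0.491-fold, edgeR adjusted p = 0.00046). Bub3h, Mad2l1bp and Cdc14A, a phosphatase of mitotic exit, fell by 1.11, 1.42 and 0.63 on the log2 scale. The Bub3h call was lost without control 12 hpf replicate A (edgeR adjusted p = 0.0805) or control 30 hpf replicate B (0.0508), and that of Cdc14A in 9 of 23 fits without 1 library (up to 0.195). The transcription factor E2f4 (L_var_03376), a regulator of S phase genes, had 460, 491 and 408 CPM at 12 hpf and 122, 115 and 112 CPM at 30 hpf (0.258-fold, edgeR adjusted p = 2.3e-06). Both IDs of E2f3 fell as well, by 1.58 and 1.84 on the log2 scale. Among the other names, Mcm3apL_3 rose by a log2 fold change of 2.32, Cdk9 fell by 1.92, and both abundant Cdc42 IDs, a GTPase of cell shape, had log2 fold changes of 0.02 and 0.00.

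**Figure D2:**
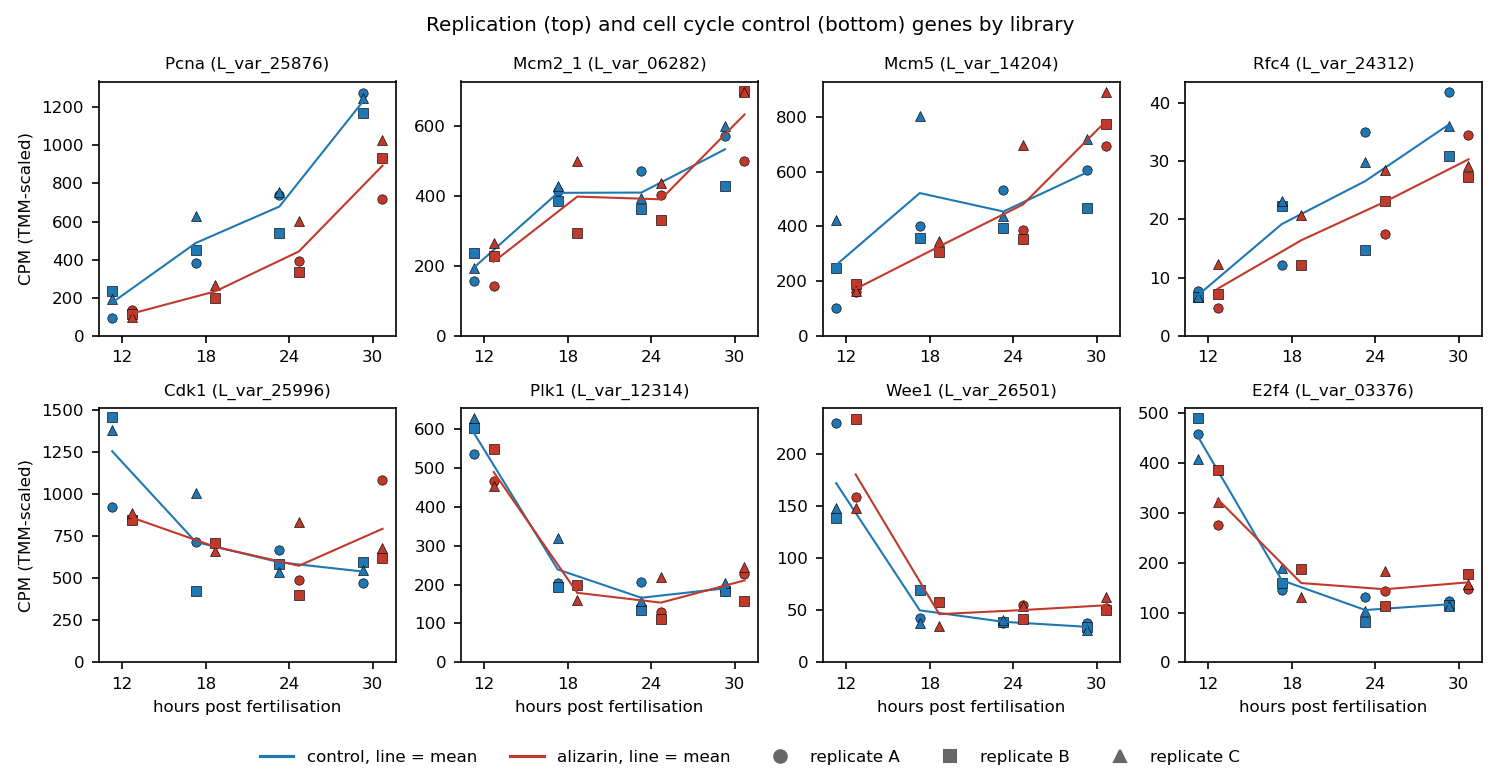
CPM (vertical axes, from 0) by hours post fertilisation of 4 replication genes (Pcna, Mcm2_1, Mcm5 and Rfc4, top) and 4 control genes (Cdk1, Plk1, Wee1 and E2f4, bottom). Each point is a library, shaped by replicate letter, coloured by treatment and set slightly beside its sampling time, and lines join group means, with Pcna in controls climbing to between 1170 and 1276 CPM at 30 hpf.

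More members were called between the first 2 times than later. From 12 to 18 hpf in controls 11 members rose and 15 fell (8.46% and 6.47% of all genes), and 8 of the 11 that rose were fork genes. From 18 to 24 hpf no member rose and 2 fell, E2f3 and Cdk9 (4.02% and 0.961% of all genes rose and fell). From 24 to 30 hpf edgeR called 0 members, with 10 at an unadjusted p under 0.05, against 0.928% of all genes called, and neither DESeq2 nor any other alternative was run on these successive times.

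In alizarin embryos 9 of 18 fork genes rose and 2 fell between 12 and 30 hpf, and 4 of 8 mitotic entry genes fell. In all 21 members rose and 25 fell (background 21.7% and 20.0% of all genes), and the medians were 0.75 for fork genes and -0.96 for mitotic entry genes. Pcna rose 7.65-fold, from 136, 116 and 97.9 CPM to 718, 934 and 1028 CPM, and Mcm5 rose 4.58-fold. Cdk1, which fell in controls, had 852, 845 and 885 CPM at 12 hpf and 1081, 618 and 682 CPM at 30 hpf with alizarin (log2 fold change -0.12, edgeR adjusted p = 0.79). Pola1, which rose in controls, had 62.6, 63.0 and 60.4 CPM and then 46.4, 67.6 and 52.7 CPM (log2 fold change -0.16, adjusted p = 0.66). These pairs of outcomes do not show a difference between treatments. The F test of whether the alizarin effect differed between the 4 times called 1 member, Cdk9 (background 0.505% of all genes), and an edgeR p under 0.05 without adjustment was found for 9 members.

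Within single time points, few cell cycle genes passed the test of alizarin against control in the fit over all 23 libraries. At 12 hpf edgeR called 0 members (background 0.0977% of all genes, or 18, a count that became 905 without control replicate A and 698 by DESeq2). At an unadjusted p under 0.05 there were 11, and DESeq2 called 2. At 18 hpf 0 members were called, as were 0.0% of all genes. There 5 members reached a p under 0.05 before adjustment, and DESeq2 made 0 calls among members and 51 among all genes. At 24 hpf 0 members were called (background 0.842%). Without adjustment 7 had a p under 0.05, and by DESeq2 there was 1 call, with 505 among all genes. At 30 hpf 2 members were higher with alizarin and 0 were lower, Cdt1 and the Cdc20 ID L_var_24577, where 1.12% of all genes were higher and 2.2% lower. The call of L_var_24577 is a description only, since this ID passed the filter on low counts only through alizarin libraries. A paired fit of the 6 libraries at 30 hpf, given below, called 23 members, or 25.8%, where 28.7% of all genes were called. The median log2 fold change at 30 hpf was 0.18 over the members and 0.03 over all genes. By role it was 0.53 for licensing genes, 0.51 for G1/S genes, 0.16 for mitotic entry genes, 0.09 for checkpoint genes and -0.00 for fork genes. The comparisons of alizarin with control at each time, their mean and the comparisons across times below share libraries.

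**Figure D3:**
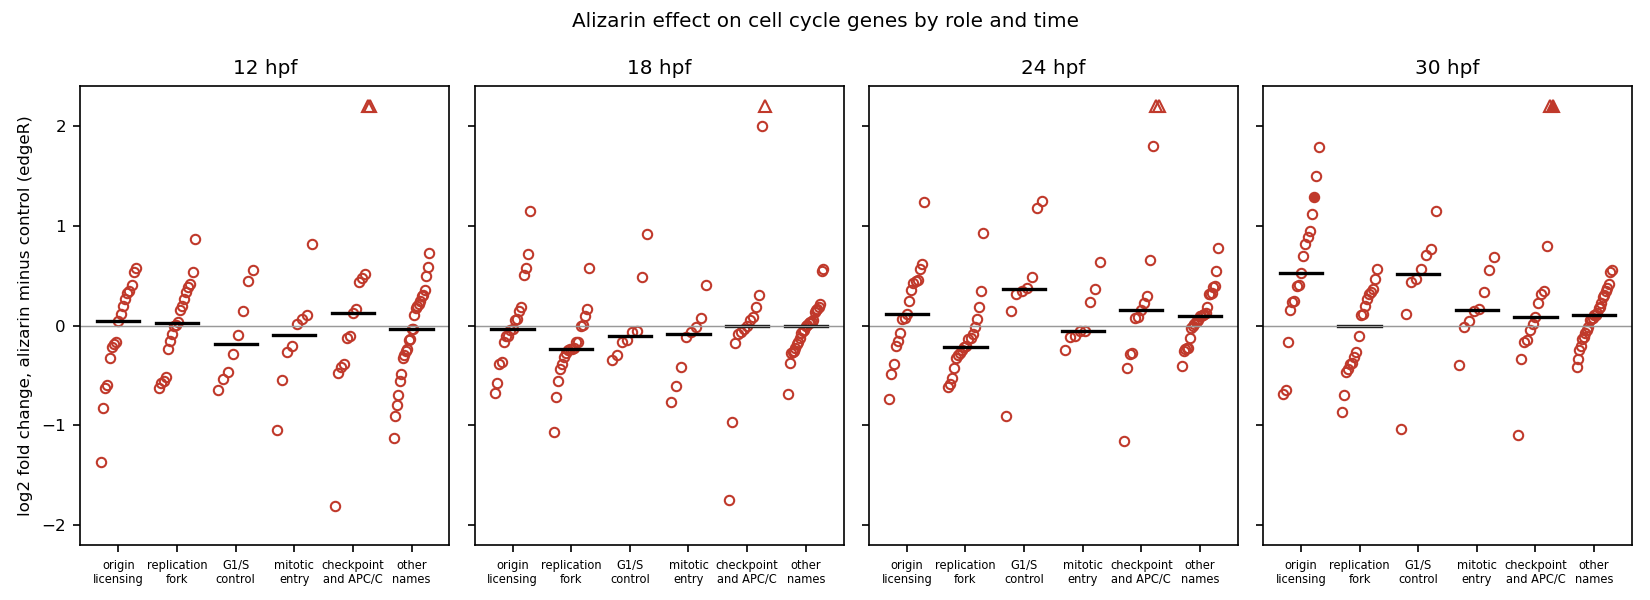
Log2 fold change of alizarin minus control (vertical axis, edgeR) for each tested member by role at 12, 18, 24 and 30 hpf. Points are gene IDs, filled where the adjusted p was under 0.05, bars are medians and triangles at the top mark Cdc20 IDs above the plotted range, and at 30 hpf the medians of licensing and G1/S genes lie at 0.53 and 0.51.

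Cdt1, the licensing factor that brings the helicase to origins, was higher with alizarin at 30 hpf. Its control libraries held 16.8, 21.8 and 16.2 CPM at that time, and the alizarin libraries 45.9, 52.0 and 36.2 CPM. The groups did not overlap, and alizarin was 2.45-fold higher (log2 fold change 1.29, SE 0.30, edgeR adjusted p = 0.024). The groups also did not overlap at 24 hpf, with 25.5, 24.7 and 27.1 CPM in controls and 42.7, 31.2 and 31.3 CPM with alizarin, where the adjusted p was 0.61. It no longer passed at 30 hpf when control replicate A or C or alizarin replicate A or B of that time was left out, with an edgeR adjusted p of up to 0.109.

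Averaged over the 4 times, 3 members were higher with alizarin and 2 were lower, in a background of 2.11% and 2.93% of all genes. The members that were higher were Cdk4/6 (L_var_05665) and the Cdc20 IDs L_var_24577 and L_var_24634. Both of these Cdc20 IDs passed the filter on low counts only through alizarin libraries, so their calls are a description only. Those that were lower were Pcna and Anapc1. The median of the mean effect was 0.02 over the members and -0.01 over all genes.

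Cdk4/6, a kinase that works with D cyclins in G1, is lowly expressed here. Control libraries held 2.47, 2.73 and 3.23 CPM at 12 hpf, 8.38, 5.28 and 3.34 at 18 hpf, 2.55, 2.82 and 2.65 at 24 hpf, and 2.10, 1.63 and 2.14 at 30 hpf. With alizarin the libraries held 4.10, 4.32 and 3.94 CPM at 12 hpf, 9.65 and 11.8 at 18 hpf, 6.85, 8.56 and 2.71 at 24 hpf, and 3.68, 4.22 and 5.13 at 30 hpf. All alizarin libraries exceeded the controls of their time except replicate C at 24 hpf. The mean effect was 1.93-fold (log2 fold change 0.95, SE 0.19, edgeR adjusted p = 0.0072) and passed in each of 23 fits that left out 1 library. The other ID of this name, L_var_05649, had a log2 fold change of 0.66 (adjusted p = 0.15).

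Anapc1 (L_var_13183), a scaffold subunit of the APC/C, was lower with alizarin. In controls it had 11.2, 10.8 and 9.29 CPM at 12 hpf, 18.3, 12.7 and 15.5 at 18 hpf, 20.6, 29.6 and 29.7 at 24 hpf, and 21.1, 21.8 and 17.9 at 30 hpf. With alizarin it had 18.9, 4.70 and 5.33 CPM at 12 hpf, 7.83 and 7.99 at 18 hpf, 10.2, 9.48 and 16.2 at 24 hpf, and 9.43, 11.2 and 7.70 at 30 hpf. From 18 hpf on every alizarin library was below every control library of its time. The mean effect was a log2 fold change of -0.83 (SE 0.20, edgeR adjusted p = 0.019), and without alizarin 18 hpf replicate B its adjusted p was 0.0634. Anapc2, another APC/C subunit, had a mean effect of 0.13 (adjusted p = 0.61).

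Pcna, though it rose over development in both treatments, was lower with alizarin on average. With alizarin it held 199 and 268 CPM at 18 hpf, 390, 337 and 602 CPM at 24 hpf, and 718, 934 and 1028 CPM at 30 hpf. Set beside the control values above, the groups were apart at 18 and 30 hpf and overlapped at 12 and 24 hpf. The mean effect was 0.625-fold (log2 fold change -0.68, SE 0.16, edgeR adjusted p = 0.019), and without alizarin 18 hpf replicate B the adjusted p was 0.0775. Of the 18 fork IDs, which include both IDs of Pola2 and of Pold2, 14 had a negative mean effect, as did 9401 of all 18419 genes. Only Pcna passed, and the median over the fork IDs was -0.12.

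**Figure D4:**
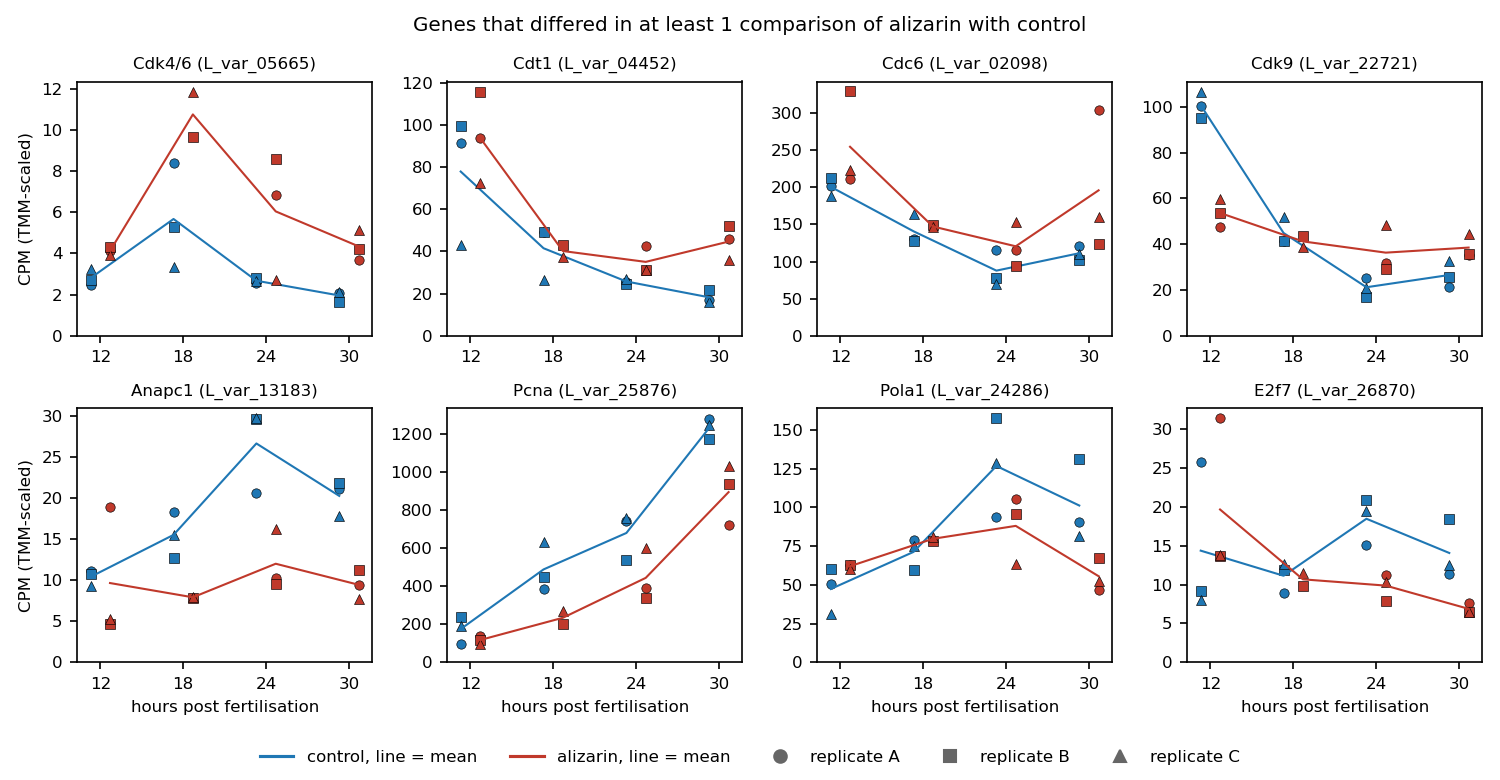
CPM (vertical axes, from 0) by hours post fertilisation of 8 genes that were called in at least 1 comparison of alizarin with control. Over all 23 libraries, Cdc6, Pola1 and E2f7 were called against controls collected 6 h earlier and not against controls of the same time. Points are libraries shaped by replicate letter, lines join group means, and alizarin libraries of Anapc1 lie below all control libraries of their time from 18 hpf on.

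Cdc20 is spread over 4 IDs that behaved differently. The abundant IDs L_var_18422 and L_var_18545 had mean alizarin effects of -0.03 and 0.10 on the log2 scale, with edgeR adjusted p of 0.95 and 0.81. The ID L_var_24577 had few reads, 15, 2 and 1 in the control libraries at 12 hpf, 4, 7 and 0 at 18 hpf, and 0 in all 6 control libraries at 24 and 30 hpf. With alizarin it had 258, 26 and 6 reads at 12 hpf, 8 and 19 at 18 hpf, 2, 1 and 13 at 24 hpf, and 108, 8 and 21 at 30 hpf. Treated libraries were above the controls of their time at 18, 24 and 30 hpf and overlapped at 12 hpf, and replicate A carried most of the reads at 12 and 30 hpf. At 30 hpf, the alizarin libraries pooled held 137 reads against 0, at least 48.7-fold higher when the controls are counted as 3 reads over the group. Replicate A held 108 of the 137 reads, so this bound is for the pooled group and does not hold for each library. This ID and L_var_24634 passed the filter on low counts only through alizarin libraries, where they were high (1 control library each reached the filter's level), so their p-values are given as a description and do not add support to the counts above. The edgeR adjusted p was 0.046 at 30 hpf and 0.011 for the mean effect, and the fitted fold change of an ID without control reads depends on the prior count and is not given. Leaving out 1 library at a time ended the 30 hpf call in 15 of 23 fits, including those without any one library of that time, with an adjusted p of up to 0.146. The mean effect kept an adjusted p under 0.05 in all 23. These fits used the same filtered genes, so this too is a description and adds no support.

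L_var_24634, the other sparse Cdc20 ID, also had its highest counts in replicate A of alizarin at 12 and 30 hpf. It had 29, 0 and 5 reads in controls at 12 hpf, 6, 6 and 3 at 18 hpf, 0, 7 and 7 at 24 hpf and 0, 1 and 1 at 30 hpf. With alizarin it had 345, 10 and 21 reads at 12 hpf, 7 and 49 at 18 hpf, 3, 1 and 79 at 24 hpf, and 337, 11 and 67 at 30 hpf. The groups overlapped at 12 and 24 hpf. The mean effect was a log2 fold change of 4.06 (SE 0.93, edgeR adjusted p = 0.017), and its adjusted p was 0.0882 without alizarin 24 hpf replicate C. It also failed without alizarin 18 hpf replicate C, and like that of L_var_24577 this call is a description only. Since the sparse IDs share a name with the abundant ones, how reads were divided between them is uncertain.

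**Figure D5:**
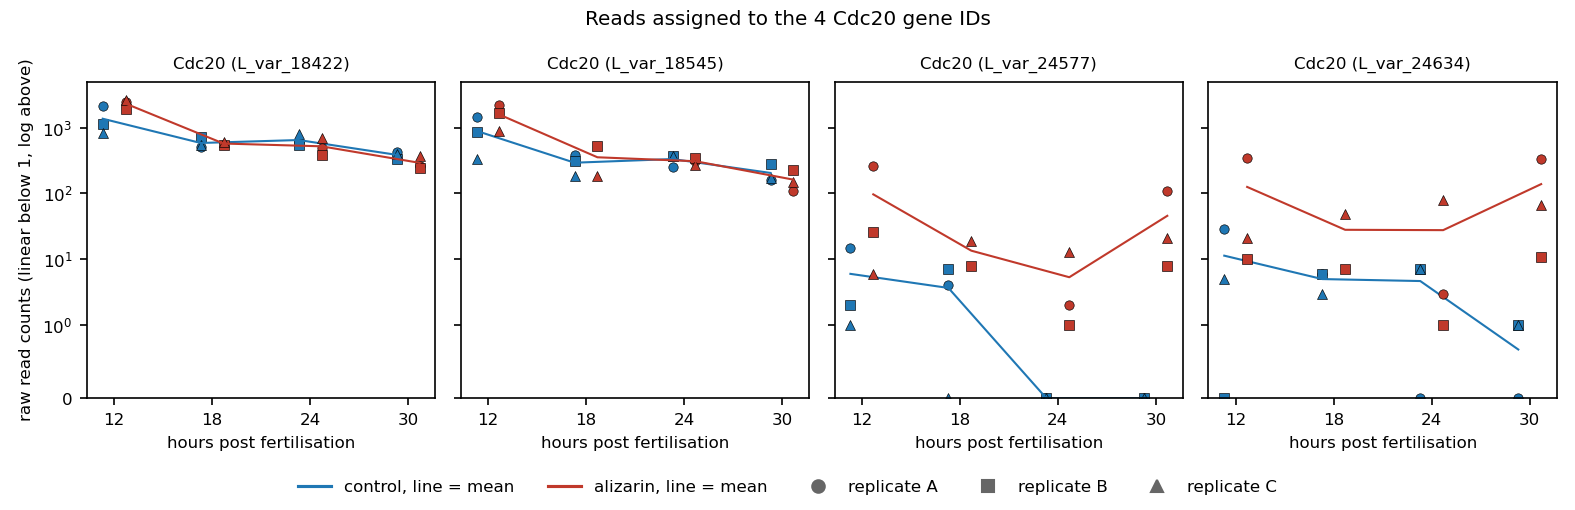
Raw reads per library (vertical axis, linear below 1 and logarithmic above) of the 4 Cdc20 gene IDs by hours post fertilisation. Points are libraries and lines join group means. At L_var_24577 all 6 control libraries at 24 and 30 hpf hold 0 reads, while alizarin libraries hold between 1 and 108.

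At 30 hpf, same-lettered control and alizarin libraries deviated together, so the comparison was also fitted on these 6 libraries with a block for the replicate letter (a paired fit). The labels do not say that letters pair samples. This pairing was chosen from the same data, and the p-values of the paired fit depend on it. There, 18 members were higher with alizarin and 5 were lower, against 12.8% and 15.9% of all genes. The share of members called, 25.8%, was close to the 28.7% of all genes. Of 17 licensing IDs, some of which share a name, 8 were higher. They were Cdt1 (log2 fold change 1.30, edgeR adjusted p = 3.8e-06), Cdc6 (0.73), both IDs of Orc3 (0.86 and 1.08), both of Orc4 (0.55 and 0.69) and 2 of the 3 lowly expressed Orc2 IDs (1.49 and 1.81). Both Orc3 IDs overlapped between the groups and did not pass without the block (edgeR adjusted p = 0.598 and 0.168). The G1/S genes E2f3 (0.57 and 0.69), E2f4 (0.47), Cdk2_1 (0.46) and Cdk4/6 (1.16) were higher as well. So were the mitotic inhibitor Wee1 (0.69), the clamp loader subunit Rfc2 (0.58), Cdk9 (0.56) and both sparse Cdc20 IDs. Those Cdc20 IDs passed the filter on low counts only through alizarin libraries and are listed as a description. Lower were Anapc1 (-1.09), the repressor E2f7 (-1.01), Pola1 (-0.84) and both IDs of Mcm7 (-0.66 and -0.64). The same 6 libraries without the block gave 5 called members, Cdt1 and Wee1 higher and Anapc1, E2f7 and Pola1 lower, and 1822 of all genes. There Wee1 passed (edgeR adjusted p = 0.0369) and E2f4 did not (0.0803), and over all 23 libraries neither passed (0.19 and 0.33), although their groups did not overlap. E2f4 had 122, 115 and 112 CPM in controls and 148, 177 and 157 CPM with alizarin, and Wee1 37.5, 33.9 and 31.0 CPM and 52.0, 50.2 and 62.4 CPM.

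At 24 and 30 hpf every alizarin library had a lower estimated age than every control of its time, and these libraries were also set against controls collected 6 h earlier. Alizarin at 24 hpf against control at 18 hpf gave 0 called members (background 0.152% of all genes), with 3 at an unadjusted edgeR p under 0.05. DESeq2 called 0 members there and 214 of all genes. Alizarin at 30 hpf against control at 24 hpf gave 3 higher and 5 lower members, where 1.11% and 4.34% of all genes were higher and lower. Higher were Cdc6 (log2 fold change 1.16, SE 0.29, adjusted p = 0.027), Cdk9 (0.86, adjusted p = 0.036) and Cdc20 L_var_24577. This Cdc20 ID passed the filter on low counts only through alizarin libraries, so its call is a description only. Lower were Anapc1 (-1.50, adjusted p = 0.031), E2f7 (-1.43, adjusted p = 0.041), Pola1 (-1.19, adjusted p = 0.018), Rfc1 (-1.10) and Bub1 (-0.81, adjusted p = 0.025).

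For Cdc6, which recruits the helicase with Cdt1, controls at 24 hpf held 116, 77.7 and 70.2 CPM and alizarin libraries at 30 hpf 304, 124 and 160 CPM. The highest value was that of replicate A, the library that stood apart in ribosomal protein reads. For Pola1 the controls at 24 hpf held 93.7, 158 and 128 CPM and the alizarin libraries at 30 hpf 46.4, 67.6 and 52.7 CPM. For E2f7 the values were 15.1, 20.9 and 19.5 CPM and 7.67, 6.50 and 6.48 CPM. The groups did not overlap at any of these genes. The 8 calls rest on few libraries: 0 members were called without control 24 hpf replicate B or C or alizarin 30 hpf replicate A or C, and 3 without alizarin 30 hpf replicate B. The 1003 calls among all genes fell as well, to between 148 and 338, in these 5 fits.

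Among 120 further cell cycle IDs that the name rule did not take (cyclins, inhibitors, geminin, condensins, kinetochore, spindle and nucleotide genes), 115 were tested. Averaged over times 7 were higher with alizarin and 3 were lower, and at 30 hpf 7 were higher and 5 lower, with medians of -0.00 in both. Of all genes, 2.11% were higher and 2.93% lower on average, and 1.12% and 2.2% at 30 hpf. Without 1 library the counts in both directions together ran from 5 to 15 for the average (386 to 1409 of all genes). At 30 hpf they ran from 1 to 14 (170 to 881 of all genes), where 1 remained without control replicate A. Those that were higher included GmnnL (geminin, which inhibits Cdt1), Emi1 (an APC/C inhibitor) and both tested CycA IDs (cyclin A, which drives S phase and mitosis); another CycA ID had 0 reads in every library. GmnnL (L_var_25271) had 4.51, 5.66 and 7.26 CPM in controls at 30 hpf and 30.5, 15.4 and 16.6 CPM with alizarin, and its mean effect was 0.98 (SE 0.17, edgeR adjusted p = 0.0028). Emi1 had 10.4, 11.3 and 13.3 CPM in controls and 44.0, 27.1 and 29.6 CPM with alizarin (mean effect 0.73, adjusted p = 0.0084). Neither gene overlapped between groups at 30 hpf, and both calls of the mean effect passed in all 23 fits without 1 library.

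For cyclin A the controls at 30 hpf held 20.8, 22.8 and 18.6 CPM at L_var_00647, and the alizarin libraries 124, 44.9 and 42.1 CPM. At L_var_00785 they held 35.3, 26.4 and 41.3 CPM and 257, 52.0 and 85.5 CPM. Alizarin was above control at both IDs, with replicate A highest, and the mean effects were 0.82 at each (edgeR adjusted p = 0.021 and 0.029). The first call failed without alizarin 18 hpf replicate C, and the second without that library or control 12 hpf replicate C, control 24 hpf replicate B or control 30 hpf replicate B. At 30 hpf alone, neither passed without alizarin replicate A (adjusted p = 0.149 and 0.143). Cycb_1 (cyclin B) was 2.22-fold higher at 30 hpf at L_var_11312 (log2 fold change 1.15, edgeR adjusted p = 0.043), while its other tested ID, L_var_11353, had 4.62, 2.395 and 9.17 CPM in controls and 11.5, 6.04 and 14.8 CPM with alizarin and did not pass (adjusted p = 0.395), and Cycb3 had a log2 fold change of 0.53 (adjusted p = 0.308).

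The further genes that were lower with alizarin on average were both IDs of Tyms (thymidylate synthase, which makes the thymine nucleotide for replication) and Ncapg (a condensin subunit). Tyms L_var_15837 had 132, 114 and 157 CPM in controls at 18 hpf and 56.5 and 84.9 CPM with alizarin, and 255, 256 and 171 CPM against 146, 150 and 117 CPM at 30 hpf. The groups did not overlap at either time, and the mean effect was -0.88 (SE 0.15, edgeR adjusted p = 0.0026). Tyms L_var_15880 had a mean effect of -0.59 (adjusted p = 0.034), which failed in 14 of 23 fits without 1 library. Ncapg rose in controls from 63.8, 63.5 and 112 CPM at 18 hpf to 182, 171 and 224 CPM at 24 hpf (log2 fold change 1.27, adjusted p = 0.0094), and alizarin libraries held 61.7, 80.0 and 133 CPM at 24 hpf and 110, 80.4 and 96.4 CPM at 30 hpf. Its mean effect was -0.55 (adjusted p = 0.029), which failed in 9 of the 23 fits. Against control at 24 hpf, 6 of 15 cohesin and condensin IDs were lower in alizarin at 30 hpf and none was higher, with a median of -0.97 against 0.06 over all genes, of which 4.34% were lower. None of the 15 was called without control 24 hpf replicate B or C or without any 1 of the alizarin 30 hpf libraries. Against control of the same time, 1 of the 15 was lower at 30 hpf (median -0.51, with 2.2% of all genes lower). At 12 hpf 0 were called (median 0.42). Averaged over the times, 1 was lower (median -0.03, with 2.93% of all genes lower).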

How the data were processed

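Raw read counts per gene and library were deposited in 1 table, per the file headers. Reads were aligned with STAR 2.7.1a, per the submitters' processing notes, and libraries were made from TRIzol RNA with a DNBSEQ mRNA kit, per the labels' protocols. The counter, strand setting, genome build and annotation are not given in the sources used here, so no positions or sequences are printed. The 109578 lines repeat a gene for each protein match and were reduced to 27231 IDs, leaving out 1 with unreadable counts.

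Genes were filtered with filterByExpr (minimum count 10), scaled with TMM and fitted with 8 group means over 23 libraries (edgeR 4.0.16 in R 4.3.3, robust quasi-likelihood, common biological coefficient of variation 0.423, tested on simulated data). Adjusted p-values are Benjamini-Hochberg over 18419 genes, and each SE is |log2 fold change| divided by the square root of F. CPM values use TMM library sizes. Alternatives were DESeq2 1.42.0, other scalings, no filter, a replicate block, subsets of members, summed IDs of a name, and leaving out each library. Squared differences between replicates were 14.4 to 129.7 times sampling noise, so none was counted as a repeat.

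The labels give replicate letters without saying what they mark. Deviations of same-lettered control and alizarin libraries from their group means correlated at 30 hpf (r = 0.50, 0.66 and 0.57 for A, B and C over all genes tested), a hint from the data that letters pair samples there. At 12 hpf r was 0.13, -0.02 and 0.13, at 18 hpf 0.08 and 0.11, and at 24 hpf -0.24, 0.19 and -0.05, so those times were not treated as paired. Ages were read from 4411 genes that changed in 1 direction in controls, members and further genes left out, against controls with other letters.

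Members, roles and gene lists were chosen with earlier results of these data known, and 4 names (5 IDs) were moved to the other names after the names, not the values, were seen. Named genes are Cdc20 L_var_24577, members called in an alizarin comparison, per role the 3 with the highest mean CPM and the 2 with the smallest p in control 30 minus 12 hpf, and further genes with the smallest adjusted p of the mean effect, up to 4 each way. Genes called only in other comparisons or fits are named from those calls.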

Additional observations from a re-analysis of the deposited data

Results flagged for a closer look

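The alizarin effect on Cdk9 (L_var_22721), a kinase of transcription elongation that the name rule takes, differed between times by the F test (edgeR adjusted p = 0.0464). Control libraries held 100, 95.1 and 107 CPM at 12 hpf, 41.5, 41.3 and 52.0 at 18 hpf, 25.5, 17.2 and 21.0 at 24 hpf, and 21.5, 25.6 and 32.6 at 30 hpf. With alizarin the libraries held 47.7, 53.5 and 59.9 CPM at 12 hpf, 43.8 and 38.8 at 18 hpf, 31.6, 29.0 and 48.4 at 24 hpf, and 35.3, 35.7 and 44.6 at 30 hpf. Treated embryos were below control at 12 hpf and above it at 24 and 30 hpf, without overlap, with log2 fold changes of -0.91, -0.12, 0.77 and 0.54 in order of time. None of these passed on its own over all 23 libraries. The paired fit of the 6 libraries at 30 hpf called Cdk9 (log2 fold change 0.56, edgeR adjusted p = 0.0131). That pairing was chosen from the same data, and the fit called 28.7% of all genes. Without the block, the same 6 libraries did not call Cdk9 (edgeR adjusted p = 0.145). The F test failed in 21 of 23 fits that left out 1 library, with an adjusted p of up to 0.107.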

How the results depend on the processing

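DESeq2 called 2 members at 12 hpf, 1 at 24 hpf, 5 at 30 hpf, 2 for the difference between times and 13 for alizarin 30 against control 24 hpf. Of all 18419 genes it called 698, 505, 1190, 725 and 1854 in these comparisons. Without the filter on low counts the last 3 member counts were 1, 0 and 5, with 473, 75 and 785 of 26092 genes called. At 30 hpf, fitting only these 6 libraries gave 5 members and 1822 of all genes. With the replicate block it gave 23 members and 5286 of all genes. Summing IDs of a name, chosen after seeing the data, gave 1 member at 30 hpf and 3 for the mean effect, with 612 and 926 of 18399 genes. Without the other names the difference between times had 0. The cause of these changes was not tested. Leaving out 1 library gave 0 to 2 called members at 12 hpf (2 without control 12 hpf replicate A), 0 to 1 at 24 hpf and 0 to 4 at 30 hpf. It gave 3 to 6 for the mean effect (3 without alizarin 18 hpf replicate B) and 0 to 2 for the difference between times. The counts were 36 to 47 for control 30 minus 12 hpf, 39 to 50 for alizarin 30 minus 12 hpf and 0 to 10 for alizarin 30 against control 24 hpf. In the same order, the calls among all genes ran from 1 to 905, 41 to 258, 170 to 881 and 386 to 1409. For the last 4 comparisons they ran from 18 to 355, 6034 to 7643, 6134 to 7976 and 148 to 1363. With the replicate block over all libraries, the member counts were 2 at 30 hpf (692 of all genes) and 7 for the mean effect (1159 of all genes). They were 46 for each treatment from 12 to 30 hpf (7747 and 7921 of all genes). For alizarin 30 against control 24 hpf the count was 10 (1237 of all genes). No other member count moved by over 1.5 times among the comparisons fitted with the block, which leave out the successive control times. For named genes 3911 values stayed on their side of the threshold, of which 61, called in neither fit, changed sign, 169 lost a call, 45 gained one and 0 called values reversed.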
